A study of Mus musculus with 8 samples.

Results

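The transcripts described here encode the nuclear subunits of complexes II to V of oxidative phosphorylation, in pancreatic islets of obese and weight-cycled mice. Members were the rows of the deposited table whose gene symbol names a subunit of succinate dehydrogenase (Sdha to Sdhd), of the cytochrome bc complex (symbols that begin with Uqcr, and Cyc1), cytochrome c (Cycs), a subunit of cytochrome c oxidase (symbols that begin with Cox4 to Cox8) or a subunit of ATP synthase (symbols that begin with Atp5). Names that carry a pseudogene suffix were left out. The rule took 51 of 35596 rows: 4 of complex II, 9 of complex III, 1 of cytochrome c, 19 of complex IV and 18 of complex V. It used names only and no measured value. It passes over 3 subunits or partners listed under other symbols, namely Atpif1, Usmg5 and Ndufa4, whose values are given beside the complexes they belong to.

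These proteins carry electrons from succinate and ubiquinol to oxygen and use the proton gradient so formed to make ATP. Complex II oxidises succinate within the citric acid cycle, complex III passes electrons from ubiquinol to cytochrome c, complex IV passes them on to oxygen, and complex V makes ATP. In beta cells the ATP formed from glucose closes potassium channels, which leads to calcium entry and insulin release. Complexes III, IV and V are built from nuclear and mitochondrially encoded subunits together, whereas all subunits of complex II are nuclear. Several complex IV subunits exist in a widely expressed form and in a form found mainly in heart and skeletal muscle.

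RNA sequencing of polyadenylated RNA was carried out on hand-picked islets, with 4 libraries per group; all mice were males of the inbred strain C57BL/6J. Obese mice ate a diet with 10% fat for 9 weeks and one with 60% fat for 18 weeks after that. Weight-cycled mice ate the 60% diet, the 10% diet and again the 60% diet, for 9 weeks each, so the last period on the 60% diet also differed between the groups, and the order of diets and its length cannot be told apart. Mice of both groups thus ended on the 60% diet. Whether a library stands for 1 animal or for a pool is not given by the labels, and p-values therefore reflect library-to-library spread only, part of which may be technical. The values are TPM, that is, transcript abundance adjusted for transcript length and scaled to the same total in each library, and they keep no record of sequencing depth.

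In all 8 libraries the beta-cell markers Ins1, Ins2, Iapp and Slc2a2 together took between 784801 and 812446 TPM. Acinar markers were highest in weight-cycled replicate 1, at 4143 TPM against 1357 to 2559 TPM in the other 7 libraries, and 0 of 5 were called. Endothelial markers took 28.5 to 49.5 TPM in obese and 16.7 to 37.2 TPM in weight-cycled libraries. Of the tested markers, 1 of 4 beta-cell (Slc2a2), 1 of 4 endothelial (Kdr) and 1 of 2 macrophage markers (Lyz2) were called, all lower, and 0 of those for alpha, delta, PP and duct cells. Across the 8127 genes with a mean of at least 1 TPM, limma (two-sided, Benjamini-Hochberg adjusted p of at most 0.05) put 98 higher and 1946 lower in the weight-cycled group, with a median log2 fold change of -0.26 over all of them. Median-of-ratios scaling, which equalises the typical gene between libraries, moved that median by 0.28 to 0.03 and gave 79 higher and 24 lower. Quantile scaling gave 173 higher and 124 lower, and removal of the trend with transcript length in each library 158 higher and 133 lower. Weight-cycled replicate 1 resembled the obese libraries in that trend: over all tested genes, Spearman's rho between transcript length and a gene's deviation from its mean was 0.345 in it, 0.184 to 0.375 in the obese libraries and -0.400 to -0.283 in the other weight-cycled libraries, across genes, which are not independent replicates. The same rho over the tested members was 0.561 in weight-cycled replicate 1, 0.0725 to 0.469 in the obese and -0.468 to -0.399 in the other weight-cycled libraries. The part of these differences in the results below was not tested.

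Most subunit transcripts of complexes II to V did not pass the test between the groups, and the few that did moved in both directions. Of the 44 members with a mean of at least 1 TPM, limma called Sdha, Cox5a, Cox7a1, Atp5b and Atp5d lower and Uqcrh higher in weight-cycled islets, and 38 did not pass. That is 13.6% of the tested members, where 25.2% of all tested genes were called. By direction, 11.4% of members against 23.9% of all tested genes were lower, and 2.27% against 1.21% were higher. The members' median log2 fold change was 0.02, and 36 of the 44 lay above the median of all tested genes. Because the zero point depends on scaling, 23 of the 44 fold changes were above 0 on TPM as deposited, 41 after median-of-ratios scaling, 26 after quantile scaling and 32 after removal of the length trend. Under these 3 corrections limma called 0 members, where 1.27% (0.972% higher, 0.295% lower), 3.65% (2.13% higher, 1.53% lower) and 3.58% (1.94% higher, 1.64% lower) of all tested genes were called. An unadjusted limma p of at most 0.05 was reached by 23, 12 and 16 of the 44 members and by 2384, 2246 and 2219 of the 8127 tested genes. The counts also changed when 1 library was left out, as did those over all tested genes. Without obese replicate 1, 2 or 3, or without weight-cycled replicate 2, 3 or 4, 0 members were called, and without obese replicate 4 there were 4 lower and 0 higher. Of all tested genes 0 to 71 were called in the former 6 comparisons and 1728 in the latter. An unadjusted limma p of at most 0.05 was reached in the former 6 by 8 to 13 of the 44 members. It was reached there by 2670 to 3459 of the 8007 to 8238 genes tested. Without weight-cycled replicate 1 there were 7 higher and 7 lower, where 57.8% of all genes tested were called in that comparison.

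**Figure D1:**
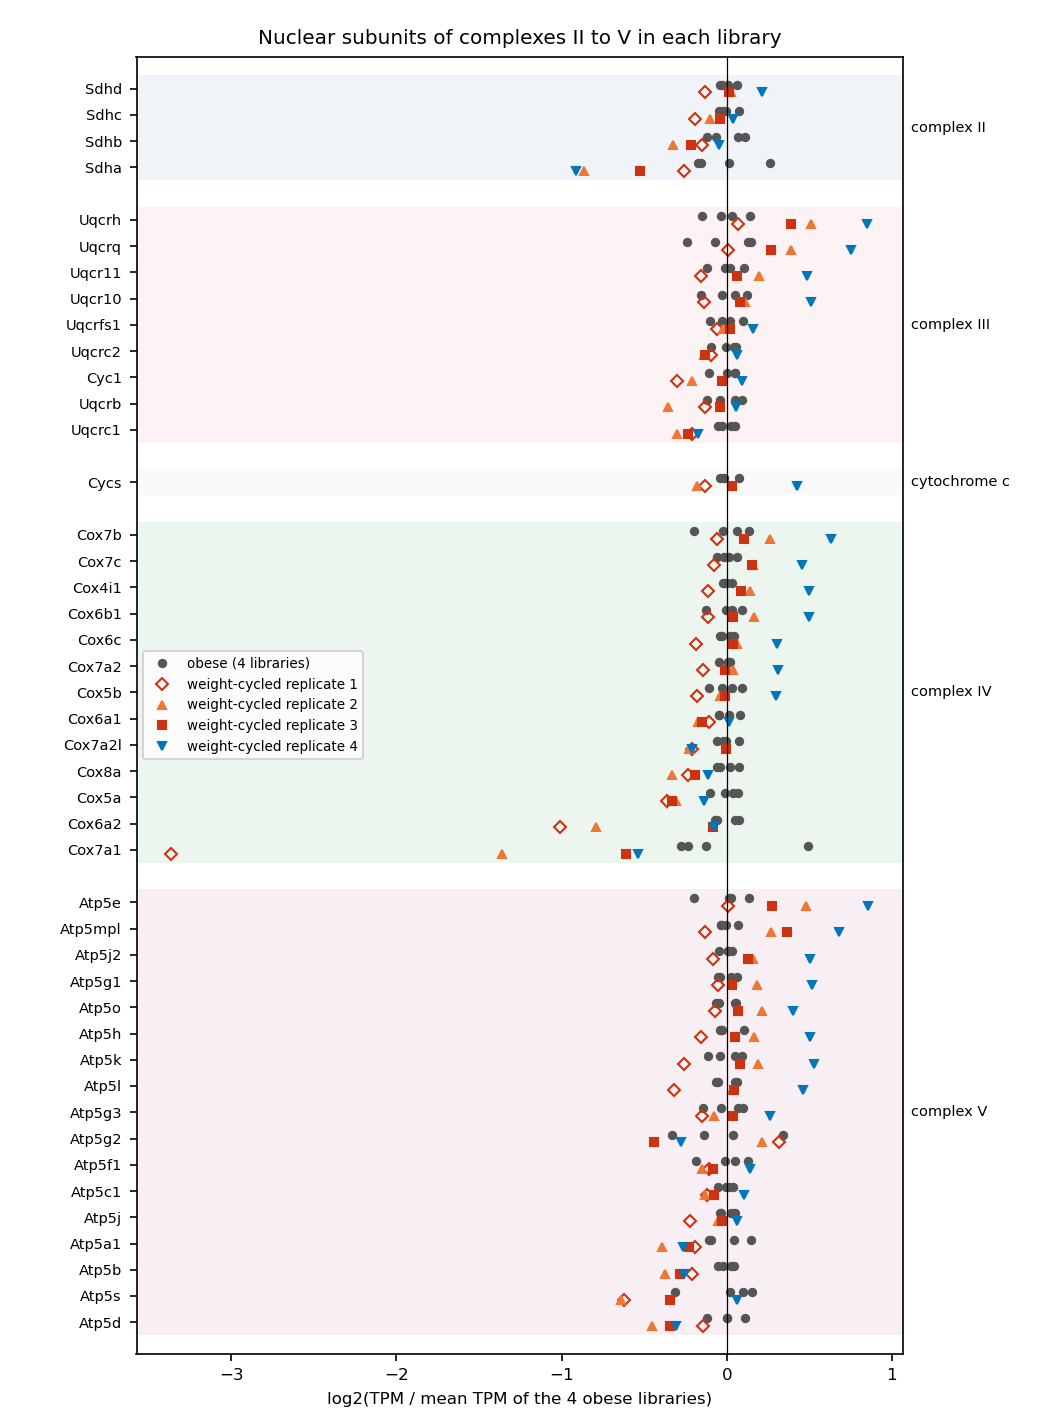
Level of each tested member in each library, as log2 of its TPM over the mean of the 4 obese libraries, grouped by complex and ordered by fold change; grey points are obese libraries and coloured symbols weight-cycled ones. Weight-cycled replicate 4 was the highest weight-cycled library for 38 of 44 members and replicate 1 the lowest for 28.

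Summed over its members, complex II stood at 172, 166, 163 and 156 TPM in the obese and at 146, 145, 151 and 163 TPM in the weight-cycled libraries. Complex III stood at 862, 959, 987 and 895 TPM in the obese and at 881, 1068, 1025 and 1344 TPM in the weight-cycled libraries. The sums of the groups overlapped for both, with the weight-cycled mean below the obese one for complex II and above it for complex III. Complex IV went from 1639 ± 28.4 to 1665 ± 204 TPM and complex V from 2367 ± 54.3 to 2616 ± 455 TPM (SD, n = 4 each). The spread among weight-cycled libraries was several times that among obese ones for complexes III, IV and V, since replicate 1 lay lowest and replicate 4 highest in each of the 3 sums. Together the 51 rows held 0.510% of the library total in the obese group and 0.552% in the weight-cycled group. As in any bulk sample, fewer cells of a type and less RNA per cell cannot be told apart.

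**Figure D2:**
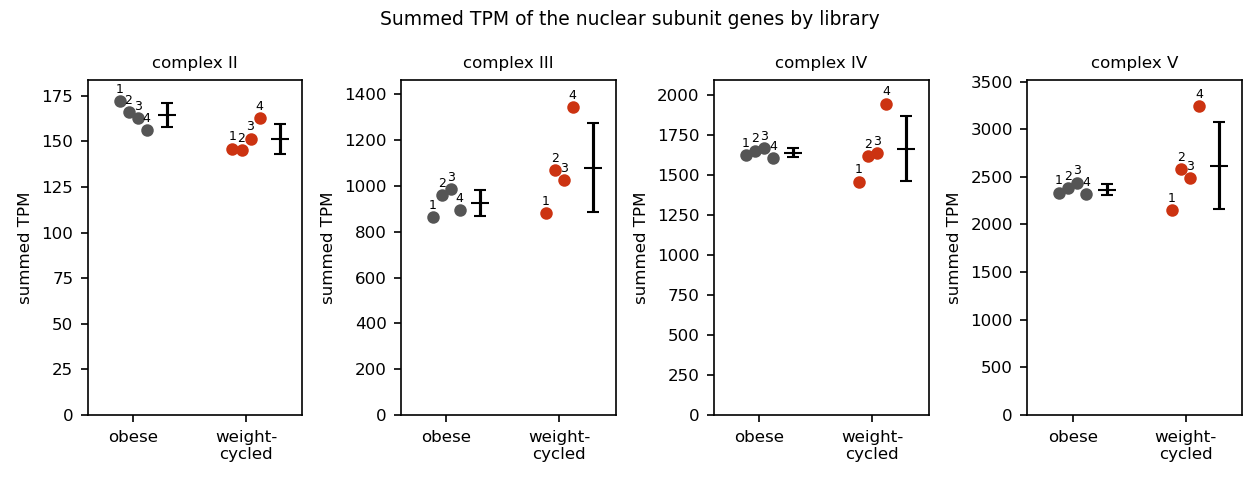
Summed TPM of the nuclear subunit genes of each complex by library; points are libraries labelled by replicate number, and the bars to their right give mean and SD of 4. Complex II sums were 156 to 172 TPM in obese and 145 to 163 TPM in weight-cycled islets, and weight-cycled replicate 4 reached 3240 TPM for complex V.

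Promoter sequence was available from the RefSeq table (build GRCm38.p6) for 32 of the 44 tested members, as the 250 bases before to the 50 after a start. It was searched on both strands for exact matches to 4 short motifs of factors known to act on respiratory genes. The motif of NRF1, spelled by the capitals in the Atp5k sequence, was in 4 of the 32 members (12.5%), namely Atp5g2, Atp5k, Cox6a1 and Uqcrc1, against 1.07% of all 27025 genes in that table and 0.971% of its 32851 promoters. An ETS core (CCGGAAGT) was in 4 (12.5%), namely Atp5h, Cox8a, Uqcr11 and Uqcrh, against 4.31% of all genes and 3.89% of promoters. The half-site of estrogen-related receptors (AAGGTCA) was in 5 (15.6%) against 5.38% and 4.72%, and the YY1 core (AAGATGGC) in 2 (6.25%) against 3.19% and 2.75%. No motif contains another, the table lists some genes with several starts, and the shares are descriptions. The sequences printed here are the 100 bases before the start of Uqcrh, the member called higher, of Sdha, called lower with the largest fall outside the muscle-type isoforms, and of Atp5k and Atp5g2, which hold the NRF1 motif in this stretch. They were chosen after the values were seen. In that order, Uqcrh, Sdha, Atp5k and Atp5g2 lie at chr4:116075071-116075170, chr13:74350241-74350340, chr5:108434400-108434499 and chr15:102671048-102671147, all on the minus strand, and are written 5′ to 3′ with motif matches in capitals: the ETS core on the opposite strand in Uqcrh and the NRF1 motif in Atp5k and Atp5g2.
Uqcrh: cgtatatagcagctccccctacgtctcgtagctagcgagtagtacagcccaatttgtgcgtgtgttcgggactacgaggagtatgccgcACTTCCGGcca
Sdha: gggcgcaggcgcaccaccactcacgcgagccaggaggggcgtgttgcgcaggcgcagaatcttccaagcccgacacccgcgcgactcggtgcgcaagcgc
Atp5k: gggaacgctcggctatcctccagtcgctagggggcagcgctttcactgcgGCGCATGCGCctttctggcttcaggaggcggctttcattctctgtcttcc
Atp5g2: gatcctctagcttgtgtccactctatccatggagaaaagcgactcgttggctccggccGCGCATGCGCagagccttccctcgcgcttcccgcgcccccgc
None of these motifs was found in this stretch of Sdha, which says only that these letters are not there. The RefSeq start used for Atp5g2 was not seen as a transcript start in GENCODE, while those of Uqcrh, Sdha and Atp5k were.

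Among the members with an NRF1 motif, Uqcrc1 was at a log2 fold change of -0.22, Cox6a1 at -0.10, Atp5g2 at -0.02 and Atp5k at 0.14, and none passed the threshold. Among those with an ETS core, Uqcrh was at 0.45, Uqcr11 at 0.15, Atp5h at 0.14 and Cox8a at -0.22. The 5 with the estrogen-related receptor half-site were Atp5e at 0.41, Atp5k at 0.14, Atp5l at 0.06, Sdhd at 0.03 and Atp5g3 at 0.02, none of which passed. Of the 2 with the YY1 core, Atp5j was at -0.06 and Atp5j2 at 0.18. Members that share the NRF1 motif, the ETS core or the YY1 core thus lay on both sides of 0. Those that share the receptor half-site lay above it, as did 23 of the 44 tested members. Of these, Atp5k, Atp5l, Sdhd and Atp5g3 did so by less than their SE (0.140, 0.139, 0.0902 and 0.106).

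In complex II the catalytic flavoprotein gene Sdha was lower in weight-cycled islets, and the genes of the other 3 subunits did not pass. Sdha (ENSMUSG00000021577.14, chromosome 13, 74322254 to 74350280, build mm10) was at 33.0, 27.8, 24.7 and 24.4 TPM in the obese and at 23.0, 15.1, 19.1 and 14.6 TPM in the weight-cycled libraries. All weight-cycled libraries lay below all obese ones, with replicate 1 nearest to them. The log2 fold change on the log2(TPM + 1) scale, used for each fold change here, was -0.60 (SE 0.146, limma adjusted p = 0.0334), or -0.34 relative to the median of all tested genes. It stayed below 0 after median-of-ratios scaling (-0.24, limma adjusted p = 0.142) and after removal of the length trend (-0.36, limma adjusted p = 0.0680). Sdhb, which encodes the iron-sulfur subunit that receives the electrons from Sdha, was at 30.7, 29.9, 27.2 and 26.2 TPM in the obese and at 25.7, 22.8, 24.6 and 27.6 TPM in the weight-cycled libraries. These groups overlapped, and the fold change was -0.17 (limma adjusted p = 0.148). The membrane anchor genes Sdhc and Sdhd, which help form the ubiquinone site, were at -0.07 and 0.03. Sdhd, the highest of the complex, was at 69.3, 71.4, 74.2 and 69.7 TPM in the obese and at 64.8, 72.6, 71.8 and 82.5 TPM in the weight-cycled libraries, on both sides of the obese range.

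The ratio of 2 transcripts within a library does not change with the scaling of that library. It can still change with the length trend where the transcripts differ in length. The median over protein-coding transcripts was 1811 nt for Sdha and 1142 nt for Sdhb. For Sdha that median is shorter than the longest coding sequence of 664 codons. After removal of the length trend the fold changes of Sdha and Sdhb were -0.36 and -0.01. The log2 ratio of Sdha to Sdhb was 0.10, -0.10, -0.14 and -0.10 in the obese and -0.16, -0.59, -0.36 and -0.91 in the weight-cycled libraries. The groups did not overlap, and the mean ratio differed by -0.45 between weight-cycled and obese islets (exact permutation test, two-sided, p = 0.0286, the smallest that the 70 assignments of 4 against 4 libraries allow). Adjusted over the 9 ratios computed it was p = 0.129 by the same exact test. With 1 library left out the smallest possible p is 0.0571, so none of these ratios could then pass.

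Complex III held the only member called higher. Uqcrh (ENSMUSG00000063882.12, chromosome 4, 116066965 to 116075071), which encodes the small hinge protein that helps cytochrome c dock on the complex, was at 202, 229, 247 and 219 TPM in the obese libraries. It was at 235, 319, 293 and 404 TPM in the weight-cycled ones. Replicate 1 of the weight-cycled group lay within the obese range and the other 3 above it. The log2 fold change was 0.45 (SE 0.145, limma adjusted p = 0.0441). The value was 0.83 after median-of-ratios scaling (limma adjusted p = 0.0870) and 0.54 after removal of the length trend (limma adjusted p = 0.0619), and it passed under neither. Uqcrq, a small subunit that lies against the membrane part, was likewise highest in weight-cycled replicate 4, with 98.2, 129, 127 and 110.4 TPM in the obese and 117, 152, 139.8 and 195 TPM in the weight-cycled group (0.36, limma adjusted p = 0.0759). The other small subunits Uqcr10 and Uqcr11 were at 0.14 and 0.15.

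None of the larger subunits of complex III passed the test. Uqcrc1, a core subunit related to mitochondrial processing peptidases, was at 36.4, 35.7, 34.5 and 34.0 TPM in the obese and at 30.4, 28.6, 29.9 and 31.2 TPM in the weight-cycled libraries. The groups did not overlap, yet the fold change of -0.22 did not pass (SE 0.0786, limma adjusted p = 0.0538). It turned to 0.15 after median-of-ratios scaling. Its partner Uqcrc2 was at 37.6, 38.8, 39.1 and 35.2 TPM in the obese and at 35.3, 34.2, 34.4 and 39.3 TPM in the weight-cycled libraries, which overlapped (-0.07). Uqcrfs1, the Rieske iron-sulfur protein that takes electrons from ubiquinol, was at 39.3, 37.3, 35.9 and 34.3 TPM in the obese and 35.3, 36.2, 37.2 and 40.9 TPM in the weight-cycled group. Its fold change of 0.03 was within the spread of either group. Cyc1, the cytochrome c1 gene that hands electrons on, was at 20.5, 20.5, 19.8 and 18.4 TPM in the obese and 16.1, 17.1, 19.4 and 21.1 TPM in the weight-cycled group (-0.11). Uqcrb, which borders the ubiquinone site, was at -0.12.

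Cycs, which encodes the soluble carrier between complexes III and IV, had a lower mean level than all other tested members except Cox7a1 and Atp5s. It was at 6.94, 6.51, 6.40 and 6.499 TPM in the obese and at 6.01, 5.81, 6.72 and 8.86 TPM in the weight-cycled libraries. Replicate 4 stood above all others and replicates 1 and 2 below all obese libraries, and the fold change was 0.03 (SE 0.122, limma adjusted p = 0.8289).

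**Figure D3:**
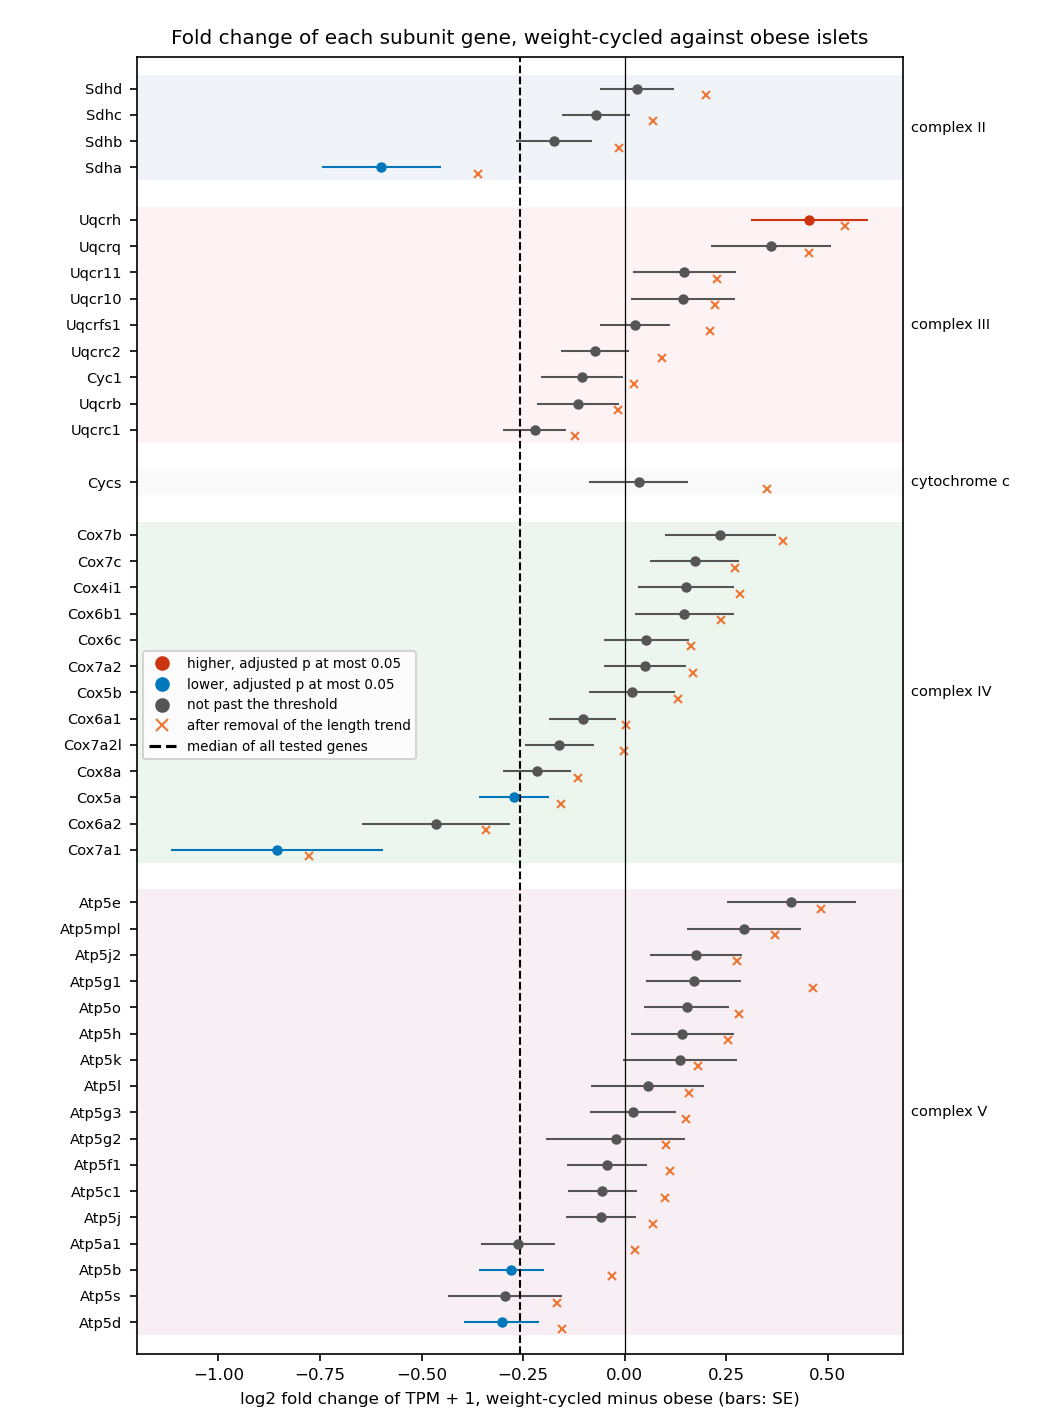
Log2 fold change of TPM + 1 (weight-cycled minus obese) for the 44 tested members by complex, with SE as bars; crosses give the value after removal of the length trend and the dashed line the median of all tested genes. Uqcrh at 0.45 was the only member called higher, and 36 of 44 members lay to the right of the dashed line at -0.26.

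In complex IV 2 of 13 tested members were lower, Cox5a and Cox7a1, and 11 did not pass, where 23.9% of all tested genes were lower. Cox4i1, the widely expressed form of a regulatory subunit, was the most abundant member of the complex. It was at 287, 289, 295 and 285 TPM in the obese and at 267, 318, 307 and 408 TPM in the weight-cycled libraries (0.15, limma adjusted p = 0.308). Weight-cycled libraries lay on both sides of the narrow obese range. Cox5a (ENSMUSG00000000088.7, chromosome 9, 57521274 to 57532426), a subunit on the matrix side, was at 30.1, 30.7, 29.1 and 27.3 TPM in the obese and at 22.8, 23.7, 23.3 and 26.6 TPM in the weight-cycled group. The groups did not overlap, with replicate 4 of each group nearest to the other group. The fold change was -0.27 (SE 0.0868, limma adjusted p = 0.0441), or -0.02 relative to the median of all tested genes, and it turned to 0.10 after median-of-ratios scaling (limma adjusted p = 0.653). Cox8a, the widely expressed form of subunit VIII, was at 236, 227, 215 and 217 TPM in the obese and 190.3, 178, 195 and 207 TPM in the weight-cycled group, without overlap (-0.22, limma adjusted p = 0.0684).

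The muscle-type isoforms showed the lowest fold changes of the complex. Cox7a1 (ENSMUSG00000074218.3, chromosome 7, 30184144 to 30186078), the heart and muscle form of subunit VIIa, was low in all libraries, at 3.18, 2.94, 2.85 and 4.88 TPM in the obese and 0.337, 1.35, 2.27 and 2.39 TPM in the weight-cycled group. All weight-cycled libraries lay below all obese ones, and replicate 1 was far below its group. The fold change was -0.86 (SE 0.260, limma adjusted p = 0.0417), with -0.57 after median-of-ratios scaling (limma adjusted p = 0.237) and -0.78 after removal of the length trend (limma adjusted p = 0.107). Its widely expressed counterpart Cox7a2 was at 101.3, 102, 101.5 and 97.3 TPM in the obese and 91.2, 103, 100.03 and 125 TPM in the weight-cycled libraries (0.05). The log2 ratio of Cox7a1 to Cox7a2 was -5.00, -5.12, -5.15 and -4.32 in obese and -8.08, -6.26, -5.46 and -5.71 in weight-cycled islets. The groups did not overlap and the means differed by -1.48 (exact permutation p = 0.0286, adjusted p = 0.129 over the 9 ratios). Without weight-cycled replicate 1 that difference was -0.91, and with a pseudocount of 1 it was -0.91; the fold change of Cox7a1 was -0.57 without that library.

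Cox6a2, the muscle form of subunit VIa, was more abundant than Cox7a1. It was at 26.0, 26.2, 28.7 and 28.2 TPM in the obese and at 13.6, 15.8, 25.8 and 25.9 TPM in the weight-cycled libraries. Weight-cycled replicates 1 and 2 were far below the rest and replicates 3 and 4 just below the lowest obese library, and the fold change of -0.46 did not pass (SE 0.182, limma adjusted p = 0.0690). Cox6a1, its widely expressed counterpart, was at 131, 137, 126 and 126 TPM in the obese and 120.5, 115, 117 and 131 TPM in the weight-cycled group (-0.10). The log2 ratio of Cox6a2 to Cox6a1 was -2.34, -2.39, -2.13 and -2.15 in obese and -3.15, -2.87, -2.18 and -2.34 in weight-cycled islets, which overlapped (exact permutation p = 0.171, adjusted p = 0.257). The means differed by -0.38, and by -0.21 without weight-cycled replicate 1. Sdha, Cox6a2 and Cox7a1 were the 3 tested members whose fold change stayed below 0 after median-of-ratios scaling.

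Markers of cells that could carry muscle-type isoforms were measured beside them. The striated muscle markers Ckm, Acta1 and Mb together took 0.563 to 0.688 TPM in obese and 0.306 to 0.576 TPM in weight-cycled libraries, and Mb, the myoglobin gene, was listed at 0 in all 8. The 6 pericyte and smooth muscle markers took 11.2 to 16.4 TPM in obese and 6.89 to 16.1 TPM in weight-cycled libraries. Their highest weight-cycled sum was in replicate 1, where Rgs5 alone took 12.6 TPM. None of the 3 striated muscle markers and 2 of the 6 pericyte markers reached a mean of 1 TPM, and limma called 0 of these 2. The 3 adipocyte markers took at most 0.153 TPM, with Adipoq listed at 0 in all libraries. The part of these cells in the isoform values was not tested.

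**Figure D4:**
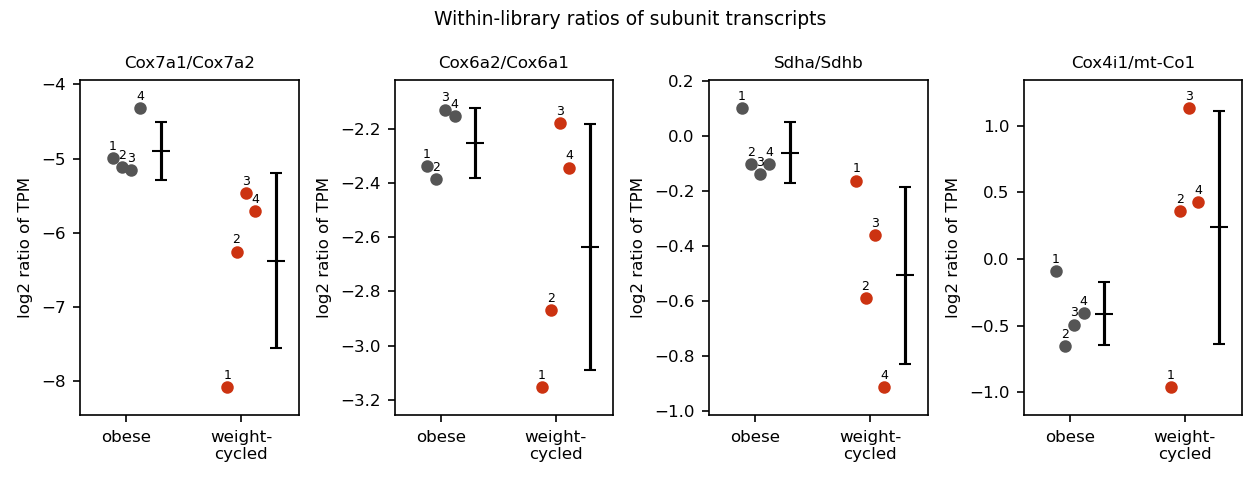
Log2 ratios of TPM within each library for muscle-type against widely expressed isoforms, Sdha against Sdhb and Cox4i1 against mt-Co1; points are libraries labelled by replicate number, and the bars give mean and SD of 4. The Cox7a1 to Cox7a2 and Sdha to Sdhb ratios did not overlap between groups, while weight-cycled replicate 1 had the lowest Cox4i1 to mt-Co1 ratio of all, at -0.96.

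The remaining members of complex IV lay between -0.16 and 0.24. Cox7a2l was at 182, 186, 199 and 188 TPM in the obese and 163, 161, 188 and 163 TPM in the weight-cycled group (-0.16, limma adjusted p = 0.148). Cox7b, a small membrane subunit and the highest fold change of the complex, was at 43.3, 48.4, 46.1 and 38.5 TPM in the obese and 42.3, 52.8, 47.5 and 68.3 TPM in the weight-cycled group (0.24, limma adjusted p = 0.176). Weight-cycled replicates 1 and 3 lay within the obese range, and without replicate 4 the fold change was 0.11. Cox7c, Cox6b1, Cox6c and Cox5b, all widely expressed, were at 0.17, 0.15, 0.05 and 0.02. Ndufa4, which the name rule misses though it is a subunit of complex IV, was at 0.32 (limma adjusted p = 0.0777).

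Of the members of complexes IV and V, 7 stayed under a mean of 1 TPM and were not tested. Cox4i2, the isoform of Cox4i1 linked to low oxygen, was at 1.41, 0.584, 0.995 and 0.846 TPM in the obese and at 0.971, 0.870, 0.671 and 1.11 TPM in the weight-cycled libraries, which overlapped. The testis form Cox6b2 reached at most 0.286 TPM, Cox8b, the muscle form of Cox8a, at most 0.137 TPM and Cox7b2 at most 0.0770 TPM. Cox6c2, Cox8c and a second gene row named Atp5o, which overlaps the Atp5o locus on chromosome 16, were listed at 0 in all libraries. Among the muscle-type forms, Cox6a2 thus reached a mean of 27.3 TPM in obese islets, Cox7a1 3.46 TPM and Cox8b 0.0207 TPM.

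Where 23.9% of all tested genes were lower, 2 of 17 tested members of complex V were, Atp5b and Atp5d, and 15 did not pass. Both belong to the part of ATP synthase that projects into the matrix. Atp5b (ENSMUSG00000025393.12, chromosome 10, 128083273 to 128090391), the catalytic beta subunit, was at 195, 193, 183 and 186 TPM in the obese and at 163, 146, 156 and 158 TPM in the weight-cycled libraries. The groups did not overlap, and the fold change was -0.28 (SE 0.0798, limma adjusted p = 0.0370). Atp5d (ENSMUSG00000003072.15, chromosome 10, 80138632 to 80145818), the delta subunit of the rotor stalk, was at 55.1, 51.1, 51.1 and 46.9 TPM in the obese and at 46.2, 37.3, 40.3 and 41.4 TPM in the weight-cycled libraries. All weight-cycled libraries again lay below all obese ones, replicate 1 by little (-0.30, SE 0.0924, limma adjusted p = 0.0417). Relative to the median of all tested genes these 2 changes were -0.02 and -0.05, and after median-of-ratios scaling they turned to 0.10 and 0.07. Atp5a1, the alpha subunit that alternates with beta, was at 127, 118, 106 and 108 TPM in the obese and 100.5, 87.6, 98.1 and 95.5 TPM in the weight-cycled group, without overlap (-0.26, limma adjusted p = 0.0509).

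The highest fold changes of the complex were those of 3 small subunits, none of which passed. Atp5e, the epsilon subunit of the rotor stalk and the most abundant of all members, was at 452, 525, 570.5 and 528 TPM in the obese and at 521, 725, 628 and 939 TPM in the weight-cycled libraries. Weight-cycled replicate 1 lay within the obese range and the other 3 above it, and the fold change of 0.41 did not pass (SE 0.159, limma adjusted p = 0.0669). It was 0.26 without weight-cycled replicate 4. Atp5mpl, a small membrane-part protein, was at 0.29 and Atp5j2 at 0.18. Usmg5, a small ATP synthase partner that the name rule misses, was at 0.49 (limma adjusted p = 0.0656). Atp5e and Atp5d, which sit together in the rotor stalk, thus lay on opposite sides of 0.

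The membrane ring of ATP synthase is made of copies of subunit c, whose identical mature form is encoded by Atp5g1, Atp5g2 and Atp5g3 with different import sequences. Atp5g3 was the most abundant of the 3, at 175, 172, 160.5 and 148 TPM in the obese and 148, 155, 169 and 197 TPM in the weight-cycled group (0.02). Atp5g1 was at 92.5, 94.7, 88.4 and 87.7 TPM in the obese and 87.5, 103, 92.9 and 130.1 TPM in the weight-cycled group (0.17). Atp5g2 was at 12.7, 9.12, 7.98 and 10.3 TPM in the obese and 12.5, 11.6, 7.38 and 8.26 TPM in the weight-cycled group (-0.02). None of the 3 passed, and their order of abundance was the same in each library. The log2 ratio of Atp5g1 to Atp5g3 had a mean of -0.85 ± 0.0675 in the obese and of -0.70 ± 0.131 in the weight-cycled group (SD over 4 libraries; exact permutation p = 0.0571, adjusted p = 0.129), and that of Atp5g2 to Atp5g3 differed by -0.05 (exact permutation p = 0.857). Reads of similar copies, here and among members with processed pseudogenes, are shared by estimate, so the split is uncertain. The 9 rows with a pseudogene suffix had a mean of at most 0.0139 TPM.

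Other members of complex V lay between -0.30 and 0.15. The central stalk gene Atp5c1 was at -0.05, and the peripheral stalk genes Atp5f1, Atp5h, Atp5j and Atp5o were at -0.04, 0.14, -0.06 and 0.15. Atp5k and Atp5l, which help ATP synthase form dimers, were at 0.14 and 0.06. Atp5s, a coupling factor gene that is not a structural subunit, was at 4.68, 4.43, 3.52 and 4.85 TPM in the obese and at 2.83, 2.80, 3.44 and 4.55 TPM in the weight-cycled group, which overlapped (-0.30, limma adjusted p = 0.112). Atpif1, the inhibitor that stops ATP synthase from running backwards, was at 110.7, 129.3, 128.4 and 112.4 TPM in the obese and at 110.5, 120.7, 119.02 and 146 TPM in the weight-cycled group (0.04). Its log2 ratio to Atp5b went from -0.66 ± 0.141 to -0.33 ± 0.190 (SD, n = 4; exact permutation p = 0.0571, adjusted p = 0.129).

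Groups did not overlap for 9 of the 44 tested members (20.5%), all of them lower in weight-cycled islets, where 22.4% of all tested genes did not overlap and 21.1% did so as lower and 1.3% as higher. Besides the 5 called lower these were Uqcrc1, Cox6a2, Cox8a and Atp5a1. Between the complexes the median fold change was -0.12 for complex II, 0.03 for complex III, 0.02 for complex IV and 0.02 for complex V. All 4 medians were above 0 after median-of-ratios scaling, at 0.25, 0.40, 0.39 and 0.40.

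Among the members, fold change was lower with greater size of the encoded protein, taken as the longest coding sequence in GENCODE M21. Spearman's rho was -0.57 over the 44 tested members, which share libraries and TPM scaling, and -0.44 over the 8011 tested genes with a coding length. Of the 16 members of at most 100 codons, 13 had a fold change above 0, with a median of 0.15, and the 3 below 0 were Cox7a1, Cox6a2 and Cox8a. Of the 17 members of over 100 and up to 200 codons 8 lay above 0 (median -0.02), and of the 11 longer ones 2 (median -0.11). Among all tested genes the medians of the same 3 size classes were -0.03, -0.11 and -0.29, so in each class the members' median lay above that of all tested genes. After removal of the trend with transcript length, rho with coding size was -0.47 over the members and -0.25 over all tested genes. The lengths used for that removal are too short for some large subunits, such as Uqcrc1 (533 nt for 480 codons). These classes were drawn after the values were seen.

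**Figure D5:**
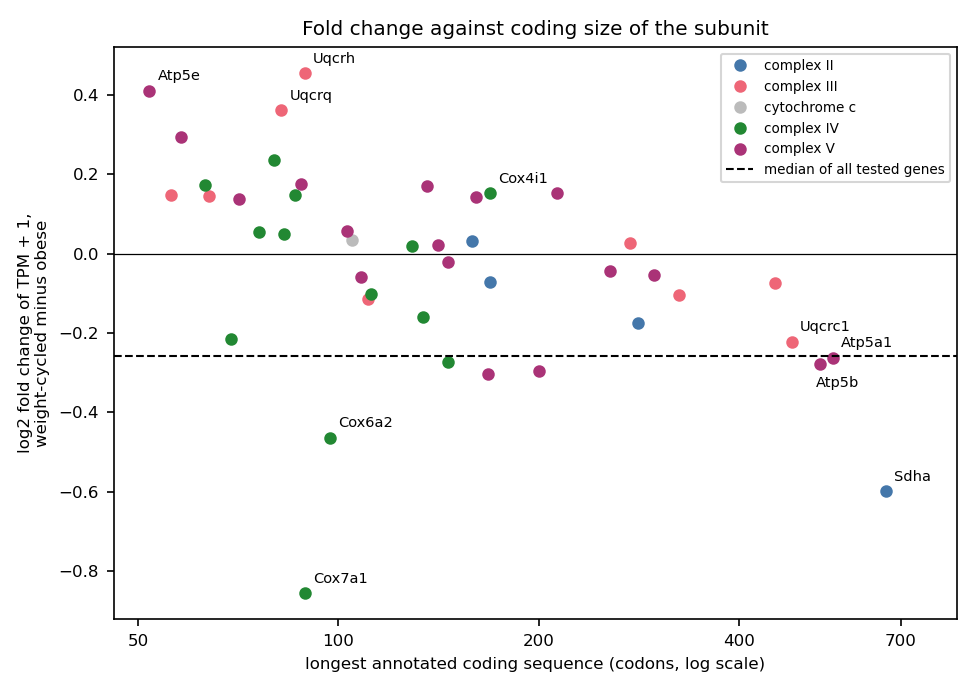
Log2 fold change of TPM + 1 (weight-cycled minus obese) of the 44 tested members against the longest annotated coding sequence in codons on a log scale, coloured by complex; the dashed line is the median of all tested genes. Of the 16 members of at most 100 codons 13 lay above 0, with Cox7a1 and Cox6a2 far below the others of that size, and Sdha was the longest at 664 codons and the lowest of the large ones.

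Without weight-cycled replicate 1 more members passed in both directions. In that comparison limma called Uqcrh, Uqcrq, Cox7b, Cox7c, Atp5e, Atp5mpl and Atp5j2 higher and Sdha, Uqcrc1, Cox5a, Cox7a1, Atp5a1, Atp5b and Atp5d lower. The 7 higher ones encode small subunits of at most 89 codons. All 6 members called with 8 libraries were among these 14. There, 3.35% of all tested genes were called higher and 54.4% lower.

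The 6 mitochondrial transcripts of complexes III to V had a median fold change of -0.50, where that of all tested genes was -0.26, and 0 of 6 passed. Their fold changes ranged from -0.64 to 0.06, the highest being that of mt-Co3, the most abundant of them. After median-of-ratios scaling their median was -0.12, and after removal of the length trend -0.38. The medians of all tested genes were then 0.03 and -0.0084. The log2 ratio of Cox4i1 to mt-Co1, a catalytic subunit of complex IV, had a mean of -0.41 ± 0.236 in the obese and of 0.24 ± 0.873 in the weight-cycled group (SD over 4 libraries). Weight-cycled replicate 1 was the lowest of all libraries at -0.96, and replicates 2, 3 and 4 were the highest at 0.36, 1.13 and 0.43 (exact permutation p = 0.229, adjusted p = 0.294). The difference of 0.65 was 1.0504 without replicate 1 and 0.35 without replicate 3. The ratio of Uqcrc2 to mt-Cytb followed the same pattern of libraries, with a difference of 0.57 (exact permutation p = 0.171) that was 0.89 without replicate 1 and 0.28 without replicate 3, and that of Atp5b to mt-Atp6 differed by 0.02 (exact permutation p = 0.943).

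Other genes of the pathway were counted from lists, to be read against the 23.9% of all tested genes that were lower and the 1.21% that were higher. Of 36 tested assembly factors 4 were lower (11.1%), 0 higher and 32 did not pass, with a median of -0.10. The 3 with the smallest p were Lrpprc, which stabilises mitochondrial messenger RNA, at -0.66 (SE 0.142, limma adjusted p = 0.0303), and the complex IV assembly genes Coa5 at -0.46 and Sco2 at -0.33. Of 5 tested regulators of respiratory genes 3 were lower, namely Yy1 at -0.53, Gabpa at -0.46 and Nrf1 at -0.41, the last with 1.64 ± 0.107 TPM in obese islets against 1.014 ± 0.368 TPM (SD over 4 libraries, limma adjusted p = 0.0449). The transcription factor genes Esrra and Tfam did not pass, and after median-of-ratios scaling, as after removal of the length trend, 0 of the 5 passed. After that removal Yy1, Gabpa and Nrf1 were at -0.12, -0.13 and -0.19. The listed regulators Ppargc1a, Ppargc1b and Pprc1 stayed under a mean of 1 TPM and were not tested. Of 6 mitochondrial carriers and porins 2 were lower, the outer-membrane channel genes Vdac1 at -0.65 (SE 0.166, limma adjusted p = 0.0340) and Vdac2 at -0.38, and the other 4, among them the ADP/ATP and phosphate carriers, did not pass. Of 39 tested genes named as nuclear complex I subunits, Ndufa4 included, 1 was higher, Ndufa1 at 0.50, and 1 lower, Ndufa10 at -0.49, with a median of 0.02. These counts rest on TPM as deposited. After median-of-ratios scaling 0 genes of these lists were called, and after removal of the length trend 1 assembly factor and 2 complex I genes.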

How the data were processed

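The deposited values are TPM per gene, for which the submitters' processing notes name Salmon 1.5.2 and build mm10; the authors' annotation and gene-level summary are not stated in any source used here. Columns sum to between 999930 and 999949 TPM, which leaves depth unknown and allows no counting interval. A symbol was found for 35527 IDs in the name table. Coordinates, transcript lengths (median over protein-coding transcripts) and coding lengths came from GENCODE M21. That median can be shorter than the longest coding sequence, as for Sdha (1811 nt, 664 codons), Uqcrc1 (533 nt, 480 codons) and Uqcrc2 (1179 nt, 453 codons). Values of such genes after removal of the length trend rest on lengths that are too short.

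Genes averaging 1 TPM or more were fitted with limma 3.58.1 in R 4.3.3 on log2(TPM + 1), with a variance trend and no covariate, and p-values were adjusted over all 8127 genes. The pseudocount of 1 understates changes of low genes such as Cox7a1. Ratios used no pseudocount: 9 of 12 listed pairs had both genes at a mean of at least 1 TPM and were tested by exact permutation (scipy 1.17.1). Length trends were removed by a loess of span 0.5 per library. The fit was tested on simulated data. Members, lists and tests were chosen with earlier results of these data known. Values in every library are given for members past the threshold, the largest rise and fall of each complex and a listed set, and other pathway genes are named by the smallest p. Members named beyond that were chosen after their values were seen. Alternatives were pseudocounts of 0.1 and 5, other filters, scalings and variance models, a threshold of 0.1, a replicate block and leaving out each library. No count model was applied.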

Additional observations from a re-analysis of the deposited data

Results flagged for a closer look

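Among 116 sets of 4 libraries, Dixon's ratio set 1 library apart from its group in 4, where chance alone gives about 5.8. Cox7a1 stood at 4.88 TPM in obese replicate 4, while the rest of that group ranged from 2.85 to 3.18 TPM. Cox7a2l reached 188 TPM in weight-cycled replicate 3, and the others of its group 161 to 163 TPM. Atp5h reached 248.7 TPM in obese replicate 3, and the others 225 to 227 TPM. The log2 ratio of Sdha to Sdhb was 0.10 in obese replicate 1 and -0.14 to -0.10 in the others.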

How the results depend on the processing

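limma called 0 of 19482 genes without a filter on low values (5686 at an unadjusted p of at most 0.05), 1080 with a mean of at least 5 TPM, 103 after median-of-ratios scaling, 297 after quantile scaling, 291 after removal of the length trend and 3963 at a threshold of 0.1. Members called higher numbered 0 without a filter and under these 3 corrections, and 3 at a threshold of 0.1. Those called lower numbered 0, 0, 0, 0 and 9. At the threshold of 0.1, 210 of all 8127 tested genes were higher and 3753 lower. With 1 library left out, 0 to 4660 genes, 0 to 7 members higher and 0 to 7 members lower were called. Deviations from the group means correlated at 0.210, -0.276, -0.0522 and 0.231 between libraries of the same replicate number. These were not compared with differently numbered libraries, so whether replicate numbers pair the libraries was not tested. With a replicate block 3 members were higher and 5 lower, and 2903 of 8127 genes were called, 149 higher and 2754 lower. Alternatives chosen after seeing the data were the block after removal of the length trend (357 genes, 1 member higher, 1 lower), the block after median-of-ratios scaling (671 genes, 5 higher, 0 lower), and removal of the length trend with 1 library left out. The last gave 0, 47, 11 and 0 genes without obese replicates 1 to 4 and 2121, 36, 135 and 28 without weight-cycled replicates 1 to 4. Members called were 19 higher and 1 lower without weight-cycled replicate 1, and 0 in the 7 other cases. Without weight-cycled replicate 1, 1037 of the 8064 genes tested were higher and 1084 lower.

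Fold changes turned positive after median-of-ratios scaling for Sdhb (0.19), Sdhc (0.30), Cyc1 (0.26), Uqcrb (0.26), Uqcrc1 (0.15) and Uqcrc2 (0.30). In complex IV they did so for Cox5a (0.10), Cox6a1 (0.28), Cox7a2l (0.22) and Cox8a (0.16). In complex V these were Atp5a1 (0.11), Atp5b (0.10), Atp5c1 (0.32), Atp5d (0.070), Atp5f1 (0.33), Atp5g2 (0.32), Atp5j (0.32) and Atp5s (0.010). Quantile scaling turned Sdhc (0.075), Cyc1 (0.074), Uqcrc2 (0.080), Atp5f1 (0.060) and Atp5g2 (0.21) positive and Cox6c (-0.0067) and Atp5l (-0.075) negative. Removal of the length trend turned Sdhc (0.070), Cyc1 (0.023), Uqcrc2 (0.091), Cox6a1 (0.0024) and Atp5a1 (0.027) positive. It did the same for Atp5c1 (0.099), Atp5f1 (0.11), Atp5g2 (0.10) and Atp5j (0.070). Fold changes without each single library were followed in a listed part of the members only. With 1 library left out, signs turned within the range from -0.13 to 0.10 for Atp5g2, -0.060 to 0.078 for Atp5g3, -0.036 to 0.11 for Cox7a2, -0.080 to 0.10 for Cycs, -0.030 to 0.084 for Sdhd, -0.017 to 0.059 for Uqcrfs1, -0.18 to 0.21 for the log2 ratio of Atp5b to mt-Atp6 and -0.23 to 0.11 for that of Atp5g2 to Atp5g3. The causes were not tested. Among the members so followed, Sdha, Cox7a1 and Uqcrh kept their direction wherever their fold changes were followed. With 1 library left out, Sdha ranged from -0.72 to -0.51 and Uqcrh from 0.32 to 0.58. Over all 19 planned settings, scalings included, Atp5e (0.21 to 0.79), Cox4i1 (0.027 to 0.53), Atp5g1 (0.055 to 0.55) and Cox7b (0.11 to 0.61) also stayed above 0. Fold changes of single members were not followed in the alternatives chosen after seeing the data. Cox7a1 was not tested at a mean of at least 5 TPM. Depth is unknown for these values.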
